A study of Mus musculus with 2 samples.

Results

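Lipid-associated macrophages were identified in single-nucleus RNA-seq of mouse liver as the nuclei with transcripts of *Gpnmb*, *Trem2* and *Mmp12*. A nucleus was taken when it had at least 300 detected genes and at most 6000 UMIs (unique molecular identifiers, each standing for 1 captured transcript), at least 3 UMIs of *Gpnmb*, *Trem2* and *Mmp12* together, at least as many of these as of the Kupffer cell genes *Clec4f*, *Vsig4* and *Timd4*, and at most 1 UMI of *Reln*, *Dcn*, *Ptprb*, *Clec4g*, *Pkhd1* and *Bcl11b*, which mark stellate, endothelial, biliary and T cells. This gave 386 of 20111 barcodes. They were compared with 654 Kupffer-like nuclei, chosen by the same limits with at least 3 UMIs of *Clec4f*, *Vsig4* and *Timd4* together and more of these than of *Gpnmb*, *Trem2* and *Mmp12*. The 3 genes that chose the nuclei, and the 9 that limited them, are therefore described below and are not findings, and every difference from Kupffer-like nuclei is a description.

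Macrophages of the steatotic liver include resident Kupffer cells and lipid-associated macrophages, which take up lipid and dying cells around fat-laden hepatocytes and fibrotic tracts. TREM2 is a surface receptor for lipids and lipoproteins that signals through the adaptor DAP12, the product of *Tyrobp*. GPNMB is a transmembrane glycoprotein of lysosome-related compartments, MMP12 is the macrophage elastase, and ATP6V0D2 is a subunit isoform of the proton pump that acidifies lysosomes.

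The study set male C57BL6/J mice carrying floxed *Themis* alleles (*Themis* flox/flox, Flox, called WT in that library's title) against mice with hepatocyte deletion of *Themis* (HKO), in which the albumin promoter drives Cre. All were given a MASH diet for 5 months from 10 to 12 weeks of age, in which fat supplied 40 kcal%, fructose 20 kcal%, and cholesterol was added at 2%. Each genotype was 1 library, made from frozen livers of several mice mixed ahead of nuclei isolation and sorting, and no difference between genotypes has a replicate check. No test was possible, and the intervals given below are exact 95% intervals that cover counting error only, with no spread between mice. *Themis* (chr10:28668360-28883818, GRCm38) was at 149 CPM (145 to 153, 3900 nuclei) in hepatocyte-like nuclei of the library labelled Flox and at 239 CPM (232 to 247, 1856 nuclei) in those of the library labelled HKO, where CPM scales the UMIs of a gene by the total of the nuclei that were summed. The targeted gene thus went against the labels, although counts of 3′ ends do not show whether a deleted exon is present, and the libraries are named by their labels throughout.

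The libraries held 9363 and 10748 barcodes, labelled Flox and HKO in that order, with medians of 6216 and 2227.5 UMIs, and 51.9% and 23.6% of their nuclei were over 6000 UMIs. Between the libraries 27 barcodes were shared, and 2 lipid-associated nuclei carried such a barcode. Lipid-associated nuclei numbered 44 in the library labelled Flox and 342 in the library labelled HKO. Their median depth was 2068 UMIs (551 to 5096) and 1616.5 UMIs (570 to 5831), which came to 95088 and 617065 UMIs in all. A gene with 3 UMIs, the limit below which a gene at 0 cannot be told from a low level, was therefore at 31.6 CPM in the nuclei labelled Flox and at 4.86 CPM in those labelled HKO.

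The genes that chose the nuclei were unevenly spread among them. *Gpnmb* (ENSMUSG00000029816, chr6:49036546-49070929) was found in 30 of the 44 nuclei labelled Flox and in 275 of the 342 labelled HKO. *Trem2* (ENSMUSG00000023992, chr17:48346401-48354147) was found in 18 and 136, and *Mmp12* (ENSMUSG00000049723, chr9:7344381-7369499) in 27 and 257. All 3 genes were detected together in 7 and 67 nuclei, and a single one of them in 20 and 83. The rule genes together had a median of 5.5 UMIs per nucleus (3 to 73) for the library labelled Flox and 6.0 (3 to 91) for the library labelled HKO. *Mmp12* carried the upper end, with up to 70 and 91 UMIs in a single nucleus, whereas *Trem2* never passed 3 and 4. Pooled over nuclei, *Gpnmb* was at 1325 and 1621 CPM, *Trem2* at 263 and 297 CPM and *Mmp12* at 2408 and 3368 CPM.

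Nuclei just inside and just outside the threshold both held transcripts of genes outside the rule. Nuclei with exactly 3 UMIs of the rule genes, 9 labelled Flox and 73 labelled HKO, had 319 and 121 CPM of *Atp6v0d2*, 63.7 and 88.7 CPM of *Itgax* and 1402 and 1201 CPM of *Cd5l*. Nuclei with exactly 2, which were left out, numbered 23 and 123 and had 79.7 and 68.5 CPM of *Atp6v0d2*, 133 and 68.5 CPM of *Itgax* and 797 and 1037 CPM of *Cd5l*.

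The share of lipid-associated nuclei among all nuclei was 0.470% (0.342 to 0.631) for the library labelled Flox and 3.19% (2.87 to 3.54) for the library labelled HKO, which is 6.79 times higher (4.95 to 9.51). Kupffer-like nuclei made up 3.19% and 3.31%, a ratio of 1.04 (0.886 to 1.21). Of both kinds together, lipid-associated nuclei were 12.8% (44 of 343, 9.48 to 16.8) and 49.1% (342 of 697, 45.3 to 52.8), a ratio of 3.83 (2.79 to 5.36). The higher share in the library labelled HKO was thus present against all nuclei and against macrophages, with an interval above 1 in each case. Nuclei over 6000 UMIs, which the rule leaves out, count in the first denominator. Among nuclei with at most 6000 UMIs the shares were 0.976% and 4.18%, a ratio of 4.28 (3.12 to 6.0), and the ratio of Kupffer-like nuclei was 0.654. After each nucleus was thinned at random to 1000 UMIs, 28 and 216 nuclei met the rule, 0.312% and 2.46%, a ratio of 7.89. With a single pool and sort for each genotype, composition and nuclei yield cannot be told apart.

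**Figure D1:**
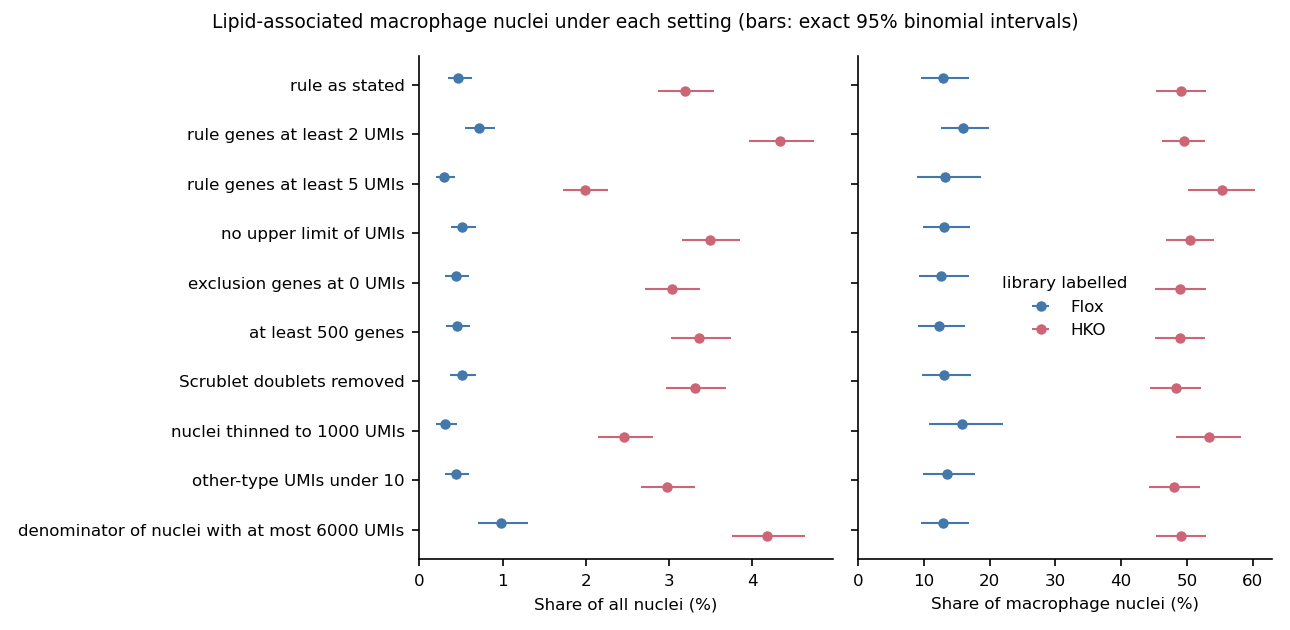
Lipid-associated nuclei as a percentage of all nuclei (left) and of lipid-associated and Kupffer-like nuclei together (right), in the library labelled Flox and the library labelled HKO, under each setting of the rule, with exact 95% binomial intervals as bars. Under every setting drawn the library labelled HKO has the higher share, with ratios from 4.28 to 7.89 on the left and from 3.10 to 4.17 on the right.

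The balance of the rule genes over all macrophage nuclei formed a continuum with most nuclei at its ends. In the library labelled Flox 78.1% of the nuclei had Kupffer genes alone and 6.71% had *Gpnmb*, *Trem2* and *Mmp12* alone. In the library labelled HKO the shares were 36.7% and 32.0%, so a larger part of the chosen nuclei lay in between. *C6*, a complement component that the rule did not use, was at 675 CPM in nuclei labelled HKO with Kupffer genes alone and at 45.2 CPM in those with the lipid-associated genes alone. In nuclei labelled Flox the levels were 945 and 316 CPM. Lipid-associated nuclei labelled Flox had 316 CPM of *C6* (173 to 530) without Kupffer rule UMIs and 158 CPM (68.0 to 310) with any. Those labelled HKO had the reverse order, 45.2 and 199 CPM. *Itgax*, which encodes CD11c, was higher with the lipid-associated genes alone than with Kupffer genes alone, at 207 and 9.99 CPM in nuclei labelled HKO. *Cd5l*, a secreted Kupffer cell protein, was still at 1077 CPM in the nuclei labelled HKO with no Kupffer rule gene and at 654 CPM in those labelled Flox.

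**Figure D2:**
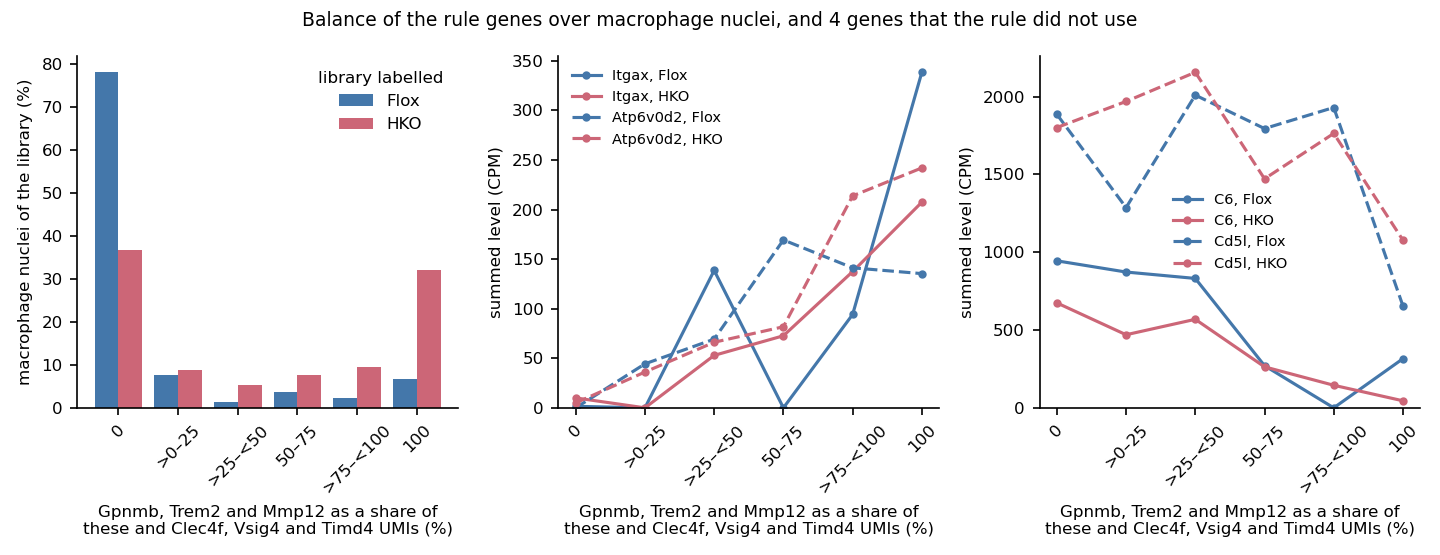
Left: the share of lipid-associated and Kupffer-like nuclei of each library (%) by the balance of *Gpnmb*, *Trem2* and *Mmp12* against *Clec4f*, *Vsig4* and *Timd4* UMIs in each nucleus, the genes that chose them. Other panels: summed level (CPM) of genes that the rule did not use in the same bins, where *C6* is lower and *Itgax* higher at the lipid-associated end than at the Kupffer end and *Cd5l* is present in all bins. In the library labelled Flox *C6* has no even order towards the lipid-associated end, at 271, 0 and 316 CPM. The library labelled Flox has few nuclei in the middle bins, from 5 to 26.

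Genes of the lipid-associated programme that were not in the rule were higher than in Kupffer-like nuclei. Of the list of 22 such genes, 13 had at least 20 UMIs over both kinds of nuclei in each library, and 7 of these were at least 2-fold higher in both libraries (*Cd9*, *Lgals3*, *Cd63*, *Lpl*, *Itgax*, *Capg* and *Cstb*), where 0.976% of all genes were, and none was 2-fold lower in both. Here and below, 2-fold counts of list genes and of all genes were made with 10 CPM added to each level. Taken alone, the library labelled Flox had 9 of 13 higher and 1 lower, beside 3.98% and 11.7% of all genes, and the library labelled HKO had 12 of 17 higher and none lower, beside 3.3% and 2.81%. The median log2 ratio of the list, with 10 CPM added to each level, was 1.51 in the library labelled Flox and 1.37 in the library labelled HKO, against -0.11 and -0.01 over all genes. A gene that reaches the limit of 20 UMIs only through the nuclei where it is high had to differ, and the list was drawn up with results of these data known. The summed level of the list was 4733 against 1278 CPM in the library labelled Flox and 4333 against 1574 CPM in the library labelled HKO.

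*Atp6v0d2* (ENSMUSG00000028238, chr4:19876841-19922605), the proton pump isoform named with the cell type but not used to choose the nuclei, had 14 UMIs in lipid-associated and 4 in Kupffer-like nuclei labelled Flox, or 147 against 5.45 CPM, a ratio of 27.0 (8.49 to 113). In the library labelled HKO it had 128 and 11 UMIs, 207 against 18.8 CPM, a ratio of 11.1 (5.98 to 22.7). Counts were low, yet the interval stayed above 1 in each library. After thinning to 1000 UMIs, *Atp6v0d2* was detected in 16.7% and 13.5% of lipid-associated nuclei, in 0.669% and 2.19% of Kupffer-like nuclei and in 0.125% and 0.224% of stellate-like nuclei, which should lack it. Before thinning, median depths were 2244 and 1666.5 UMIs in lipid-associated and 1812 and 1544.5 in stellate-like nuclei, so the shares in lipid-associated nuclei were above the level that free RNA gave.

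*Itgax* (ENSMUSG00000030789, chr7:128129547-128150657) ranked first against Kupffer-like nuclei among genes outside the rule with at least 20 UMIs over both kinds of nuclei in each library, by the smaller of the log2 ratios. With 17 and 104 UMIs in lipid-associated nuclei against 3 and 8, *Itgax* reached that minimum only through the nuclei where it was high. It therefore had to be higher there, and its rank is a description. It was at 179 against 4.09 CPM in the library labelled Flox, a ratio of 43.7 (12.7 to 233), and at 169 against 13.6 CPM in the library labelled HKO, a ratio of 12.4 (6.04 to 29.4). Thinned nuclei had an *Itgax* UMI in 14.3% and 14.5% of lipid-associated nuclei and in 1.57% of Kupffer-like nuclei labelled HKO. Of Kupffer-like nuclei labelled Flox 0 of 299 had it after thinning, which allows up to 1.0% when 3 nuclei are taken as the limit, and 0.669% had it before thinning. Among lipid-handling genes, *Lpl*, the lipoprotein lipase, was at 2282 against 531 CPM, a ratio of 4.30 (3.62 to 5.08), and at 2102 against 808 CPM, a ratio of 2.60 (2.34 to 2.90). *Fabp5*, a fatty acid binding protein, was at 105 against 2.72 CPM and at 97.2 against 6.82 CPM, from 10 and 60 UMIs. The lipid droplet coat *Plin2* was at 326 against 158 CPM and at 290 against 128 CPM, and the fatty acid translocase *Cd36* at 358 against 99.4 CPM and at 418 against 206 CPM, both about 2-fold or more.

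The tetraspanins *Cd9* and *Cd63* were at 200 and 316 CPM in lipid-associated nuclei labelled Flox, against 34.1 and 42.2 CPM in Kupffer-like nuclei, and at 146 and 345 CPM against 42.6 and 113 CPM in those labelled HKO. *Lgals3*, galectin-3, was at 231 against 72.2 CPM and at 203 against 68.2 CPM. *Emp1*, an epithelial membrane protein, had 5 and 32 UMIs in lipid-associated nuclei and none in Kupffer-like nuclei. Set against 3 UMIs in Kupffer-like nuclei it was 12.9-fold and 10.1-fold higher, which leaves out the counting error of its own UMIs. Both libraries gave the same direction for each of these genes. The programme was not complete, as *Ctsk* had 1 and 0 UMIs, *Mreg* 0 in both and *Dcstamp*, of macrophage fusion, 1 and 11, and the phosphatase *Acp5* was at 189 against 157 CPM and at 125 against 106 CPM.

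By the rule for named genes, the genes highest against Kupffer-like nuclei in both libraries after *Itgax* were *Ahnak*, *Alcam*, *Il1rn*, *Plaur*, *Stra6l*, *Gdf15*, *Atf3*, *Ccl4*, *Pdgfa*, *Gm14636* and *Atp6v0a1*. *Alcam*, an adhesion molecule, had 17 UMIs in lipid-associated nuclei labelled Flox and 163 in those labelled HKO, with ratios of 13.1 (5.67 to 32.1) and 6.74 (4.34 to 10.9). *Gdf15*, a stress-induced cytokine, was at 137 against 28.6 CPM and at 97.2 against 11.9 CPM. *Pdgfa*, a growth factor for stellate cells, was at 189 against 45 CPM, a ratio of 4.21 (2.23 to 7.70), and at 162 against 44.3 CPM, a ratio of 3.66 (2.36 to 5.87). *Il1rn*, which encodes the antagonist of the interleukin-1 receptor, was higher by 8.20 and 7.13 times, and *Plaur*, the urokinase receptor, by 5.79 and 7.45 times. Some of these levels rested on few nuclei: *Ahnak* had 24 UMIs in 4 nuclei labelled Flox, 14 of them in 1 nucleus, and 33 of the 74 *Ccl4* UMIs of the library labelled HKO were in 1 nucleus. *Ahnak* is broadly expressed, and was at 327 and 363 CPM in stellate-like nuclei. *Alcam* was at 375 and 479 CPM in stellate-like and at 1267 and 1125 CPM in cholangiocyte-like nuclei, above its levels in lipid-associated nuclei. In hepatocyte-like nuclei *Stra6l* was at 124 and 130 CPM and *Gdf15* at 103 and 68.8 CPM. These 4 genes were thus not particular to lipid-associated nuclei.

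**Figure D3:**
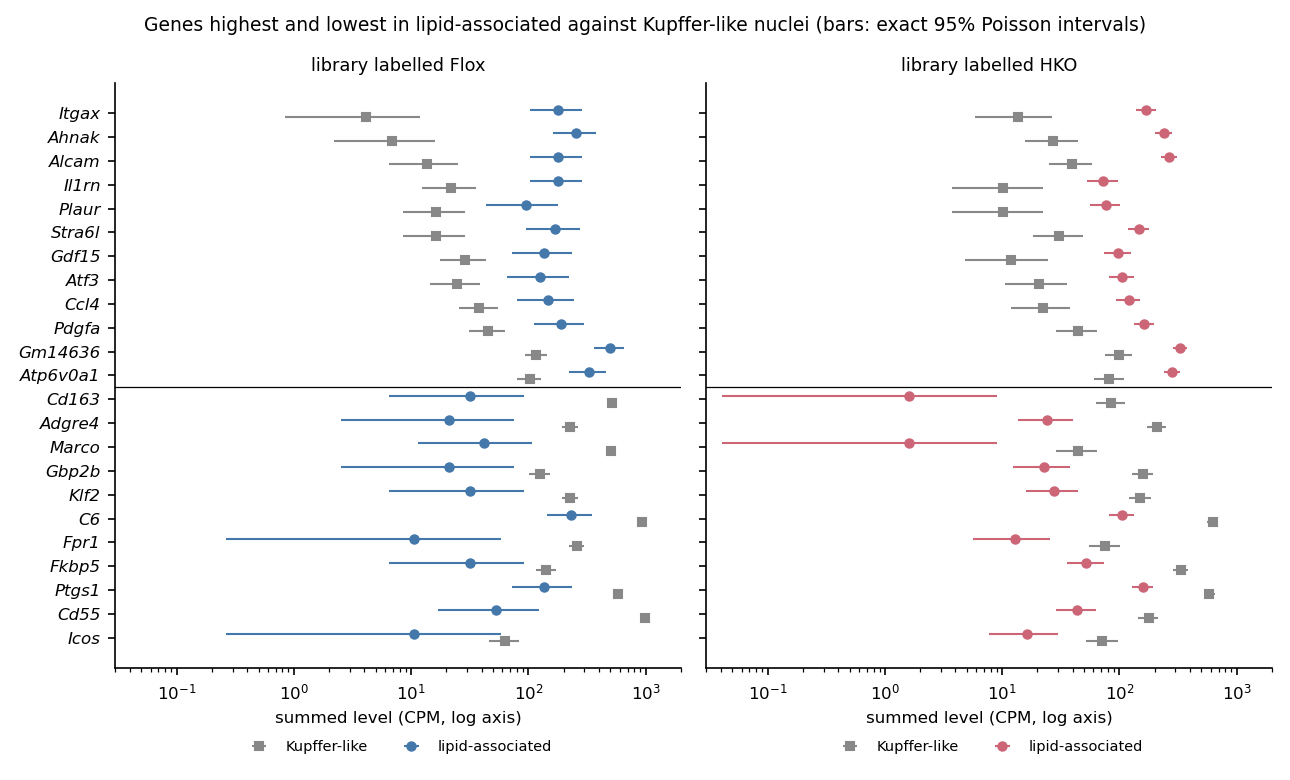
Summed level (CPM, log axis) of genes highest (above the line) and lowest (below it) in lipid-associated against Kupffer-like nuclei, in the library labelled Flox (left) and the library labelled HKO (right), with exact 95% Poisson intervals as bars. *Itgax* is at 179 and 169 CPM in lipid-associated nuclei and *Cd163* at 31.6 and 1.62 CPM, and intervals are wider for the 44 nuclei labelled Flox than for the 342 labelled HKO.

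Genes of Kupffer cell identity were lower in lipid-associated nuclei, though not all of them. Of 17 genes of the list with at least 20 UMIs in each library, 9 were at least 2-fold lower in both (*Marco*, *Cd163*, *Fcna*, *Folr2*, *C6*, *Spic*, *Adgre4*, *Cdh5* and *Hpgd*), where 1.43% of all genes were. The medians were -1.32 and -1.25 on the log2 scale. By library, 11 of 18 were lower under the Flox label and 11 of 17 under the HKO label, beside 11.7% and 2.81% of all genes. Genes that reach 20 UMIs only through Kupffer-like nuclei, such as *Cd163* and *Marco*, had to be lower. This also holds for several of the lowest genes named below. *Cd163*, the receptor for haemoglobin and haptoglobin, had 3 UMIs in lipid-associated and 379 in Kupffer-like nuclei labelled Flox, and 1 and 50 in those labelled HKO, or 16.4 (5.56 to 79.7) and 52.6 times lower (9.02 to 2118). *Marco* was 12.0 and 27.4 times lower, from 4 and 1 UMIs. The Kupffer-like nuclei were not the same reference in both libraries. In them *Cd163* was at 516 CPM under the Flox label and 85.2 CPM under the HKO label, and *Marco* at 505 and 44.3 CPM. Of 18 list genes 7 were at least 2-fold lower in Kupffer-like nuclei labelled HKO and 0 higher, beside 2.27% and 0.669% of all genes. The list's median log2 ratio there was -0.57. *C6* was at 231 against 936 CPM, 4.05 times lower (2.65 to 6.50), and at 105 against 622 CPM, 5.91 times lower (4.53 to 7.81).

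Other Kupffer genes were lower by smaller ratios. *Cd5l* was at 1294 against 1834 CPM in the library labelled Flox and at 1293 against 1879 CPM in the library labelled HKO. After thinning, 54.8% and 62.9% of lipid-associated nuclei had a *Cd5l* UMI, against 75.9% and 77.4% of Kupffer-like and 1.37% and 3.36% of stellate-like nuclei. *Slc40a1*, the iron exporter ferroportin, was at 3008 against 5432 CPM, 1.81 times lower, and at 1718 against 4112 CPM, 2.39 times lower. The nuclear receptor *Nr1h3* was at 252 against 409 CPM and at 240 against 254 CPM, so lipid-associated nuclei held transcripts of both programmes. Among the genes lowest by the rule outside this list, *Klf2*, *Fpr1*, *Fkbp5*, *Ptgs1*, *Cd55* and *Icos* were between 3.68 and 24.6 times lower, and *Gbp2b*, whose reads can be shared with its close paralogs, 5.96 and 6.99 times.

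Genes of macrophages in general differed less between the kinds of nuclei. Of 16 pan-macrophage genes, *Adgre1*, which encodes F4/80, alone was 2-fold lower in both libraries, at 94.6 against 437 CPM and at 118 against 252 CPM, and the list's medians were -0.03 and -0.45. The receptor *Csf1r* was at 421 against 556 CPM and at 250 against 481 CPM. Of 5 genes of recruited monocytes with enough UMIs none was 2-fold different in both libraries once 10 CPM was added to each level. Without that addition *Ccr2*, the monocyte chemokine receptor, was past 2-fold in both. It was at 94.6 against 25.9 CPM, a ratio of 3.66 (1.46 to 8.48), and at 85.9 against 39.2 CPM, a ratio of 2.19 (1.32 to 3.74). *Ly6c2*, *Chil3*, *F13a1* and *S100a4* had at most 1 UMI in lipid-associated nuclei of either library.

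Genes of TREM2 signalling showed no such difference. None of 11 was 2-fold different in both libraries, with medians of -0.08 and -0.18. *Tyrobp* was at 200 against 338 CPM and at 162 against 203 CPM, and the kinase *Syk* at 231 against 345 CPM and at 340 against 290 CPM. The ratio of *Tyrobp* was 0.591 (0.350 to 0.943) for the library labelled Flox and 0.799 (0.606 to 1.05) for the library labelled HKO, so a higher level in lipid-associated nuclei was not seen at this depth. *Ms4a7*, of the MS4A family of membrane proteins, was at 589 against 309 CPM and at 261 against 176 CPM.

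Of 30 lysosomal genes with enough UMIs, *Psap* and *Atp6v0a1* were at least 2-fold higher in both libraries, where 0.976% of all genes were, and none was lower. The medians were 0.28 and 0.36, and the first was 0.094 when nuclei with 10 or more UMIs of other types were left out. The list's summed level was 15039 against 9651 CPM in the library labelled Flox and 12947 against 9041 CPM in the library labelled HKO. *Psap*, the precursor of the saposins that help to break down sphingolipids, was at 3229 against 881 CPM, a ratio of 3.66 (3.19 to 4.2), and at 3011 against 1331 CPM, a ratio of 2.26 (2.08 to 2.46). *Atp6v0a1*, a proton pump subunit, was higher by 3.19 (2.03 to 4.91) and 3.45 times (2.49 to 4.85). The protease *Ctsd* was at 1041 against 484 CPM and at 930 against 493 CPM, and *Lipa*, the lysosomal acid lipase, at 663 against 421 CPM and at 601 against 353 CPM. The membrane protein *Lamp1* was at 305 against 432 CPM and at 311 against 292 CPM and *Lamp2* at 610 against 674 CPM and at 580 against 668 CPM.

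MiT/TFE factors are the regulators of lysosomal genes, and their own transcripts differed little. *Mitf* was at 158 against 132 CPM and at 170 against 128 CPM, and *Tfe3* at 231 against 222 CPM and at 173 against 172 CPM. *Fnip2*, of the complex that regulates them, was higher in both libraries, at 189 against 61.3 CPM and at 191 against 69.9 CPM. Their binding motif was searched as TCACGTG or TCATGTG on either strand, letters that overlap the general E-box CACGTG, in RefSeq promoters of the GRCm38.p6 build, from 250 bases before to 50 after each gene's start. A gene counted when any of its promoters held the motif, and 8.4% of all 27025 genes with a promoter did. The motif was found for 11 of the 23 lysosomal genes matched by symbol (47.8%). It was found for 3 of 14 genes of the lipid-associated list (21.4%) and for 1 of 15 of the Kupffer list. Of the rule genes, *Mmp12* held a match, and *Gpnmb* and *Trem2* did not. Of the 12 genes highest against Kupffer-like nuclei, 11 had a promoter, and 0 of these held the motif. A motif for the macrophage factor PU.1, GAGGAAGT, was found for 3.69% of all genes with a promoter and for 1 gene of the lipid-associated list, *Spp1*. Of the rule genes, *Mmp12* held this motif too, 88 bases before an annotated start. A match is a stretch of letters and not a measured binding site. The windows around matches in *Mmp12* (a rule gene), in *Acp5* and *Igf2r* of the lipid-associated list and in *Ctsd* and *Atp6v1a* of the lysosomal genes are shown 5′ to 3′ on the gene's strand, with the match in capitals. They lie at chr9:7347280-7347308, chr9:22130671-22130699, chr17:12769737-12769766, chr7:142387908-142387937 and chr16:44139373-44139402, and the matches begin 83, 90, 49, 99 and 132 bases before an annotated start. The *Mmp12* and *Acp5* windows lie inside the spans of their genes, so these starts are not the outermost ones.
Mmp12: tgctgttacttCACATGAttctgaagtaa
Acp5: agtccagtgctCACATGAcccaaggggag
Igf2r: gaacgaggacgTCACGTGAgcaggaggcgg
Ctsd: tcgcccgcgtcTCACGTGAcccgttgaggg
Atp6v1a: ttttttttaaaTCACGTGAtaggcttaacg

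Secreted products, proteases and inflammatory genes were mixed. Of 7 growth factor genes with enough UMIs, *Pdgfa*, *Vegfa* and *Gdf15* were at least 2-fold higher in both libraries and none was lower, beside 0.976% and 1.43% of all genes. Of 10 inflammatory genes, *Il1rn* and *Ccl4* were higher and *Il1b* was lower, at 63.1 against 244 CPM and at 35.7 against 109 CPM. The chemokine *Cxcl2* was not among the 10, as it fell short of 20 UMIs in the library labelled Flox. It had 15 and 76 UMIs in lipid-associated nuclei against 4 and 3 in Kupffer-like nuclei, ratios of 28.9 (9.22 to 120) and 24.1 (7.93 to 119). Of 7 protease and matrix genes *Plaur* alone passed in both libraries, since few proteases reached 20 UMIs in the library labelled Flox. *Adam8*, a membrane protease, and the collagenase *Mmp13* fell short of that minimum in the library labelled Flox and were not among the 7. *Adam8* had 11 and 99 UMIs against 4 and 4, ratios of 21.2 (6.29 to 91.4) and 23.5 (8.90 to 88.0), and *Mmp13* had 2 and 47 UMIs against 0 and 2. With 10 CPM added, none of 14 genes of lipid uptake and efflux was 2-fold higher in both libraries, with medians of 0.34 and 0.29. Without that addition *Cd36*, given above, was past 2-fold in both. The cholesterol exporter *Abca1* was at 894 against 564 CPM and at 1138 against 781 CPM.

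**Figure D4:**
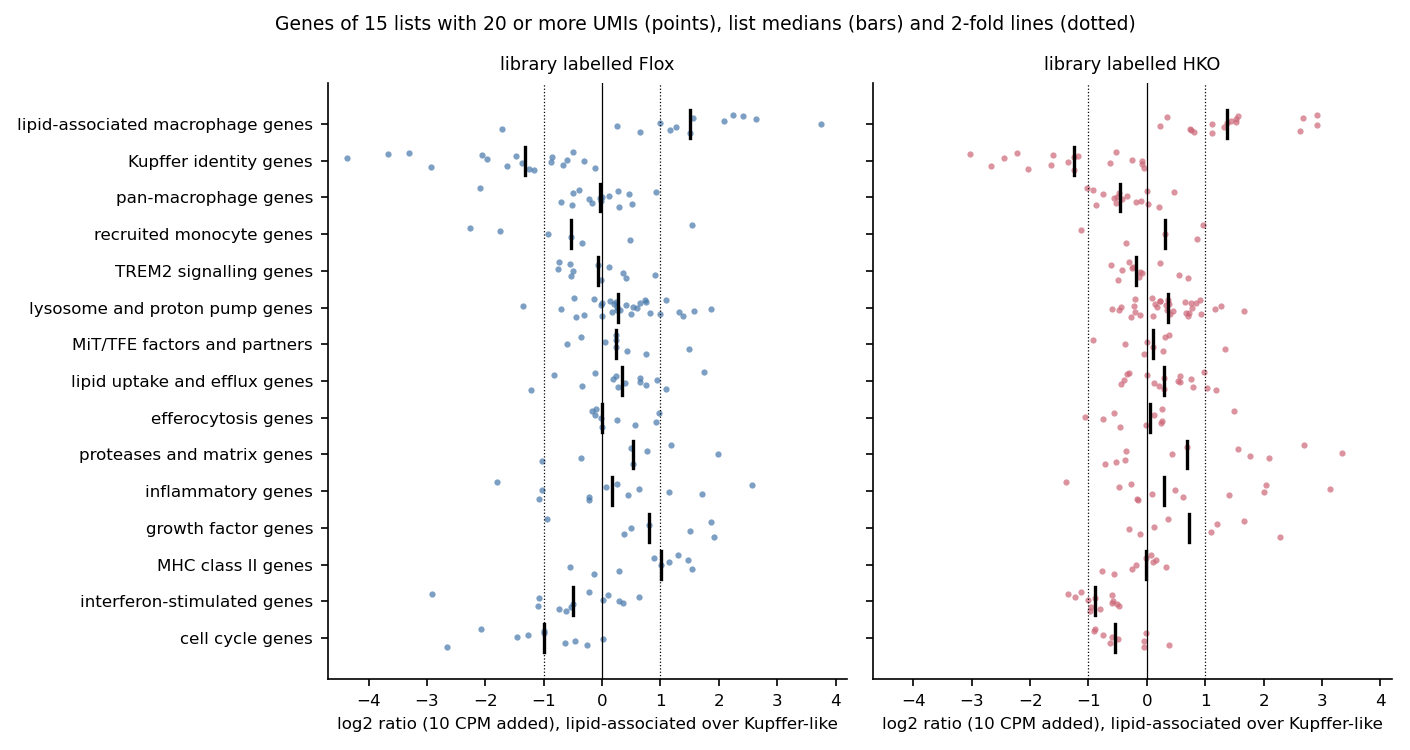
Log2 ratio, with 10 CPM added, of lipid-associated over Kupffer-like nuclei for each gene with at least 20 UMIs (points) in 15 lists, with list medians as bars and 2-fold lines dotted, in the library labelled Flox (left) and the library labelled HKO (right). The lipid-associated list lies to the right, with medians of 1.51 and 1.37, the Kupffer list to the left, with medians of -1.32 and -1.25, and the other lists lie nearer 0.

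The question of the design, how macrophages differ between the genotypes, could be described within lipid-associated nuclei only at the depth of the 44 nuclei labelled Flox. Of 5832 genes with at least 20 UMIs over both libraries, 526 were at least 2-fold higher and 243 at least 2-fold lower in the library labelled HKO, which is 9.02% and 4.17%. These counts fell to 70 and 32 with 50 CPM added and to 35 and 14 among genes with at least 100 UMIs. In Kupffer-like nuclei, with 299 and 355 nuclei, the shares were 0.669% and 2.27%. Of 17 lipid-associated genes 2 were higher (*Fabp4* and *Colec12*) and 1 lower (*Spp1*), with a median of -0.08 against -0.01 over all genes. The median was 0.41 when lipid-associated nuclei with Kupffer rule UMIs were left out. The level of *Atp6v0d2* was 147 CPM under the Flox label and 207 CPM under the HKO label, with a ratio of 1.41 (0.810 to 2.65). *Itgax* levels were 179 and 169 CPM, with a ratio of 0.943 (0.561 to 1.68), and *Lpl* levels 2282 and 2102 CPM, with a ratio of 0.921 (0.797 to 1.07). These intervals all held 1. Of 29 lysosomal genes none was 2-fold different, and the median was -0.10, or 0.045 without nuclei that held 10 or more UMIs of other types.

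Genes named between the libraries needed at least 50 UMIs over both. A gene with 0 or 1 UMI in the library labelled Flox passed only through the library labelled HKO and had to be higher there. That was so for *Il7r*, for *Fabp4* and *Tecpr1* below and for most other genes among the highest. *Il7r* (ENSMUSG00000003882, chr15:9505788-9530176), which encodes the interleukin-7 receptor and is best known in lymphocytes, was among the highest, and was the highest when nuclei with 10 or more UMIs of other cell types were left out. It had 1 UMI in 1 of 44 nuclei labelled Flox and 135 UMIs in 58 of 342 nuclei labelled HKO, or 10.5 against 219 CPM, a ratio of 20.8 (3.67 to 828). Thinned nuclei had an *Il7r* UMI in 2.38% (0.0603 to 12.6) and 11.9% (8.54 to 16.1) of lipid-associated nuclei and in 0.334% and 0.313% of Kupffer-like nuclei, and the intervals of the lipid-associated shares overlapped. T-cell-like nuclei, where it is expected, had it in 2 of 6 and 7 of 9. The 10 T cell markers together had 3 and 23 UMIs in lipid-associated nuclei, with *Cd3g* and *Cd3d* at 0 in both libraries. Within the library labelled HKO, *Il7r* was at 327 CPM (272 to 390) in lipid-associated nuclei with no Kupffer rule UMI and at 49.8 CPM (25.7 to 87.0) in those with any. Without the nuclei that held other types it had 131 UMIs against 1, a ratio of 21.0.

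*Fabp4*, a fatty acid binding protein of adipocytes, endothelium and macrophages, had no UMI in the library labelled Flox and 57 UMIs in 20 nuclei of the library labelled HKO. Set against 3 UMIs in the library labelled Flox it was 2.93-fold higher, and the counting interval of the ratio had a lower limit of 2.30. *Tecpr1*, which acts in autophagy, had 1 and 64 UMIs, the latter in 44 nuclei, a ratio of 9.86 (1.71 to 396). The other genes highest by the rule were genes of plasma cells (*Igha*, *Iglc3* and *Jchain*) and of hepatocytes (*Pck1*, *Onecut2*, *Mlxipl*, *Uox*, *Abcc2* and *Slco1b2*). Of the 367 *Igha* UMIs 351, of the 301 *Iglc3* UMIs 300 and of the 90 *Jchain* UMIs 82 were in 1 nucleus labelled HKO. Without the nuclei that held 10 or more UMIs of other types, which left 41 and 319, *Il7r*, *Fabp4* and *Tecpr1* were 3 of the 12 highest and the other 9 were replaced. Among lipid genes, *Acsl1*, which activates fatty acids, had 5 and 121 UMIs, 52.6 and 196 CPM, a ratio of 3.73 (1.55 to 11.7).

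*Spp1*, osteopontin, was lowest in the library labelled HKO, at 305 and 68.1 CPM, 4.48 times lower (2.69 to 7.37). Of its 29 UMIs in the library labelled Flox 17 were in 1 nucleus. Wider over nuclei were *Slc26a11*, with 18 UMIs in 13 nuclei labelled Flox and 32 in 28 labelled HKO, 3.65 times lower (1.93 to 6.70), *Wfdc17*, 3.51 times lower, *Apobec3*, which restricts retroviruses, 2.97 times lower, and *Itpr2*, a calcium channel, 2.84 times lower. *Tmc3*, *Tmem170b*, *Cmtr1*, *Arhgap31*, *Ctla2b*, *Dusp1* and *Tnfaip8* completed the lowest 12, and *Ctla2b* can share reads with a paralog. The complement genes *C1qa*, *C1qb* and *C1qc* were at 1020, 799 and 1041 CPM in the library labelled Flox and at 478, 429 and 517 CPM in the library labelled HKO, and the median of 15 pan-macrophage genes was -0.48. In Kupffer-like nuclei that median was -0.31.

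Transcripts of other cell types were present in lipid-associated nuclei and their part in these differences was not tested. The 13 hepatocyte markers summed to 2177 and 2188 CPM, against 2616 and 1630 CPM in Kupffer-like nuclei, with up to 27 and 102 UMIs in 1 nucleus and with *Abcb11*, *Hnf4a* and *Slc10a1* at 0 in the library labelled Flox. The stellate markers summed to 273 and 271 CPM, the endothelial markers to 126 and 175 CPM, and 9 cholangiocyte markers, without *Spp1*, to 0 and 4 UMIs. Plasma cell markers had 1 and 771 UMIs, 735 of the latter in 1 nucleus, and B cell markers were at 189 and 131 CPM. The dendritic list summed to 515 and 549 CPM, with 8 of its 10 genes, *Flt3*, *Zbtb46*, *Xcr1* and *Siglech* among them, at 0 in both libraries, and the neutrophil list to 94.6 and 146 CPM, with *Ly6g* at 0. Scrublet, a doublet caller, marked 0 of 44 and 18 of 342 lipid-associated nuclei (5.26%), where it marked 7.49% and 8.58% of all nuclei.

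Within the lipid-associated nuclei of the library labelled HKO, several genes outside the rule were higher in nuclei with more UMIs of the rule genes. In nuclei with 3 or 4, 5 to 9 and 10 or more such UMIs (129, 120 and 93 nuclei), *Atp6v0d2* was at 129, 164 and 343 CPM, *Pdgfa* at 52.7, 110 and 343 CPM, *Gdf15* at 43.1, 59.3 and 201 CPM and *Alcam* at 177, 178 and 460 CPM. *Il7r* followed the same order only at the top, at 110, 110 and 465 CPM. *C6* was at 134, 119 and 58.1 CPM, whereas *Cd5l* had no such order, at 1208, 1392 and 1274 CPM. The median depth of the bins was 1454, 1616 and 1822 UMIs, and deeper nuclei reach more rule UMIs. In the library labelled Flox the bins held 16, 19 and 9 nuclei, and *Atp6v0d2*, at 176, 177 and 73.4 CPM from 5, 7 and 2 UMIs, had overlapping intervals.

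**Figure D5:**
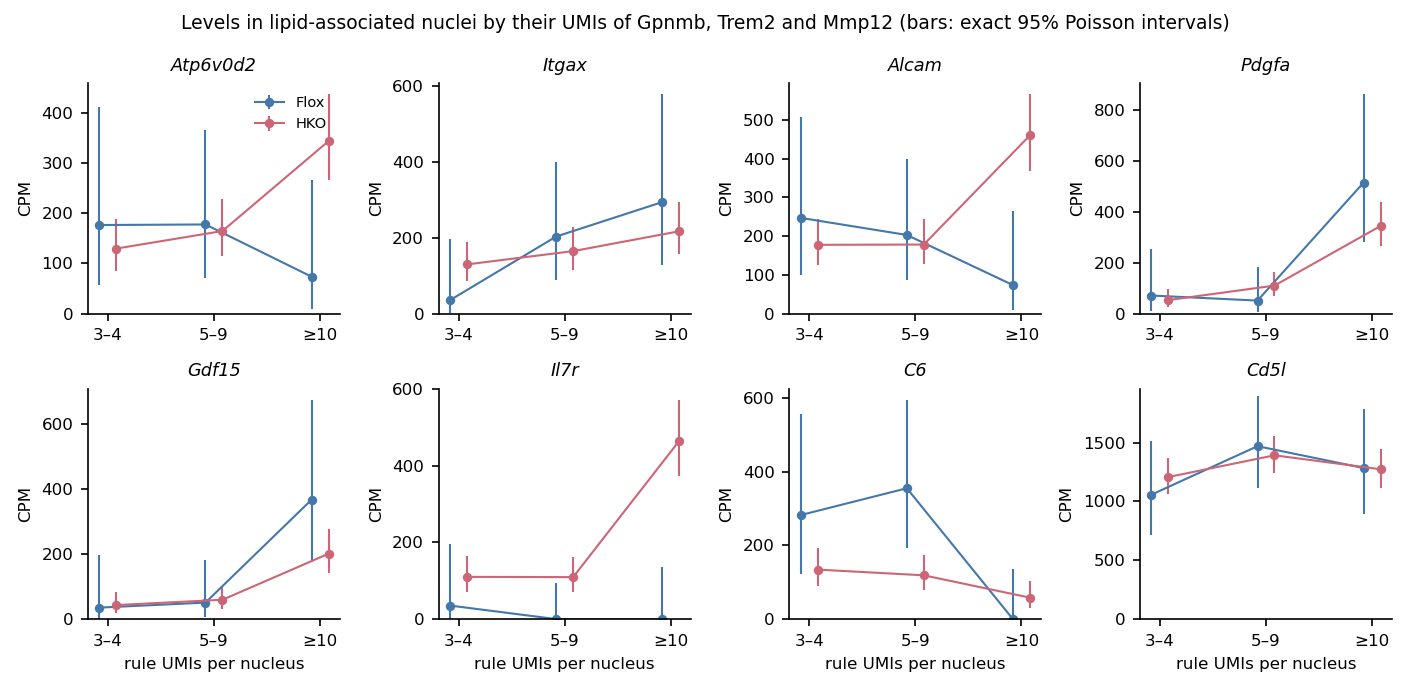
Summed level (CPM) of genes outside the rule in lipid-associated nuclei with 3 or 4, 5 to 9 and 10 or more UMIs of *Gpnmb*, *Trem2* and *Mmp12*, for the library labelled Flox and the library labelled HKO, with exact 95% Poisson intervals as bars. In the library labelled HKO *Atp6v0d2* is at 129, 164 and 343 CPM and *C6* at 134, 119 and 58.1 CPM, and the intervals of the 44 nuclei labelled Flox are wide.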

How the data were processed

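Nuclei of whole liver, sorted on propidium iodide, were sequenced with the 10x 3′ kit. The authors mapped reads with Cell Ranger 8.0.1 to the 10x mouse transcriptome on GRCm38 without intronic reads and deposited UMI counts per gene and nucleus. Filtering, DoubletFinder and edgeR steps of the study came later and are not in these counts. The members and gene lists were chosen with earlier results of these data known.

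UMIs were summed per library and kind of nuclei with Python 3.11.15, numpy 2.4.6, scipy 1.17.1 and pandas 2.3.3, and given as CPM. Poisson intervals of CPM, Clopper-Pearson intervals of shares and conditional binomial intervals of ratios were exact, and the code was tested on simulated data. Log2 ratios had 10 CPM added and needed at least 20 UMIs over both sums, and called means past 2-fold. Named genes were the 12 highest and 12 lowest of each comparison (between libraries with at least 50 UMIs, against Kupffer-like nuclei by the smaller ratio of the libraries without rule genes), the 2 highest and 2 lowest of a list, and preset markers; a few of these genes are not reported here. *Cxcl2*, *Adam8* and others given as examples outside these were chosen after their values were seen.

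Doublets were limited by the rule, and Scrublet (scanpy 1.11.5, 30 components, 0.8% per 1000 nuclei) was an alternative, as were TMM factors from edgeR 4.0.16 in R 4.3.3, thinning to 1000 UMIs and other thresholds. Promoters were those of RefSeq.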

Additional observations from a re-analysis of the deposited data

Results flagged for a closer look

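Nuclei that missed the rule by a single criterion also carried the transcripts. In the library labelled Flox 4 nuclei, and in the library labelled HKO 32, were left out by the limit of 6000 UMIs alone. Their median depth was 10265 and 7583 UMIs, and *Itgax* was at 45.8 and 33.5 CPM and *Atp6v0d2* at 91.6 and 52.1 CPM in them, against 179 and 169 CPM and 147 and 207 CPM in the nuclei taken. A further 24 nuclei labelled HKO were left out by the exclusion genes alone.

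The difference between lipid-associated and Kupffer-like nuclei had opposite directions in the libraries, with each ratio's counting interval away from 1, for *Vcam1* (log2 ratio 0.53 in the library labelled Flox and -0.71 in the library labelled HKO), *Acsl1* (-1.22 and 1.04), *Igf1* (0.49 and -0.31) and *Colec12* (-1.71 and 0.74). *Acsl1* and *Colec12* rested on 5 and 2 UMIs in lipid-associated nuclei labelled Flox. With 1 library per genotype the difference was not tested.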

How the results depend on the processing

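The library labelled HKO had the higher share of lipid-associated nuclei under every alternative, with ratios of 6.06 to 7.89 over all nuclei and 3.10 to 4.17 over macrophages. With a denominator of nuclei up to 6000 UMIs, chosen after seeing the data, the first ratio was 4.28. Counts of genes past 2-fold depended on the pseudocount and on the minimum of UMIs. Between the libraries 526 genes were higher in lipid-associated nuclei, against 70 with 50 CPM added, 35 with at least 100 UMIs and 1300 with at least 1 UMI, and 243 were lower, against 366 with 1 CPM added, 32 with 50 CPM added, 14 with at least 100 UMIs and 934 with at least 1 UMI. Against Kupffer-like nuclei 62 genes were higher in both libraries, and 25, 15 and 147 under the settings of 50 CPM, 100 UMIs and 1 UMI, and 91 were lower, against 143 with 1 CPM, 27 with 50 CPM, 45 with at least 100 UMIs and 139 when lipid-associated nuclei with Kupffer rule UMIs were left out. That last setting moved the library ratio of the lipid-associated list to 0.41 and of the interferon list to -0.94, the Flox-labelled ratio of the cell cycle list against Kupffer-like nuclei to -2.64, and *Jchain* between libraries to -0.19, the only reversal of a gene. With exclusion genes at 0 UMIs the cell cycle list was at 2.00 between libraries and at -2.47 against Kupffer-like nuclei labelled Flox. Leaving out nuclei with 10 or more UMIs of other types, chosen after seeing the data, moved the lysosomal list to 0.045 between libraries and to 0.094 against Kupffer-like nuclei labelled Flox. Causes were not tested. The other 396 values of lists and 1127 of genes moved by less than their spread or counting interval, and 96 gene values moved by more. TMM factors were 0.970 to 1.03. No paired analysis was possible because each genotype is 1 library, and for the same reason no replicate could be left out. The 95088 UMIs of lipid-associated nuclei labelled Flox limit every comparison between the libraries.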

Other observations

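Interferon-stimulated genes were lower in lipid-associated than in Kupffer-like nuclei in the library labelled HKO, with a median log2 ratio of -0.88, and the median was -0.50 in that labelled Flox. Of 12 genes with enough UMIs, *Ifit3* and *Oas2* were at least 2-fold lower in both libraries, where 1.43% of all genes were. *Oas2*, a sensor of double-stranded RNA, was at 200 against 435 CPM in the library labelled Flox and at 154 against 375 CPM in that labelled HKO. MHC class II genes differed between the libraries in where they stood. The 9 genes summed to 4848 CPM in lipid-associated and 2242 CPM in Kupffer-like nuclei labelled Flox, and to 3502 and 3471 CPM in those labelled HKO. The invariant chain *Cd74* was at 1493 against 669 CPM and at 929 against 864 CPM. None of 9 efferocytosis genes was 2-fold different in both libraries, and *Axl*, a receptor for dying cells, was at 231 against 248 CPM and at 322 against 269 CPM.

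Cell cycle genes were not higher in lipid-associated nuclei, with medians of -0.99 and -0.55 over 10 genes. The first median rests on few UMIs, as 7 of the list's 16 genes had none in lipid-associated nuclei labelled Flox. *Mki67* was at 31.6 against 165 CPM in the library labelled Flox and at 61.6 against 123 CPM in that labelled HKO. Of lipid-associated nuclei, 1 labelled Flox and 23 labelled HKO had 2 or more UMIs of these genes, which is 2.27% and 6.73%.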
